A study of Rattus norvegicus with 19 samples.

Results

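Left ventricles of rats given paricalcitol for 4 weeks were compared with left ventricles of rats taken before any treatment began, gene by gene. The comparison used 8 of the 19 arrays of the series, 4 per group, chosen by their titles. All rats were males of the Dahl salt-sensitive strain, which becomes hypertensive when fed much salt, and all ate food with 6% NaCl starting at 6 weeks of age. The paricalcitol group was 15 weeks old and had received 200 ng of paricalcitol by intraperitoneal injection 3 times a week during the last 4 weeks, with the salty diet continued. The baseline group was 11 weeks old, had eaten the salty diet for 5 weeks and was untreated. A vehicle group of 4 rats, also 15 weeks old and injected with the solvent on the same schedule, is set beside the results where it helps to place them; a further 7 rats, also 15 weeks old, entered the estimate of the spread between arrays. Of these, 3 had received 90 ug of enalapril per day with vehicle injections for 4 weeks, and 4 the same enalapril with 200 ng of paricalcitol 3 times a week (the combination). Each array held the RNA of 1 left ventricle, as far as the labels show.

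Paricalcitol, age, 4 more weeks of salt and the injections differ together between paricalcitol and baseline hearts, so they cannot be told apart in this comparison. Sample descriptions carry numbers that run in distinct blocks, 1 per group, so a cohort difference cannot be told apart either. In this model salt loading raises blood pressure, the ventricle wall thickens, and the heart later fails. Paricalcitol is a synthetic vitamin D analogue that activates the vitamin D receptor, a nuclear receptor that pairs with a retinoid X receptor on DNA. In mice, loss of that receptor is known to raise renin expression and enlarge the heart, which is the background for giving such drugs in pressure overload.

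Levels are given as log2 of the normalized probe intensity plus 16, so that 4.00 is the lowest possible value and stands for no signal above background. Differences are paricalcitol minus baseline on that scale, with the standard error (SE) of limma, and a gene passed at a Benjamini-Hochberg adjusted p under 0.05 over 14217 genes. Array medians lay between 47.0 and 72.6 intensity units on the 8 arrays before normalization, and the number of arrays limits the precision. Heart muscle as the tissue was borne out by 11 cardiomyocyte markers, whose median level lay at the 99.9th percentile of all genes. These markers were not chosen to tell the left ventricle from other chambers. The mean centred score of 7 atrial myocyte markers lay between -0.44 and 0.29 under paricalcitol, and between -0.22 and 0.37 at baseline. The paricalcitol arrays differed more among themselves than the baseline arrays did: correlations between arrays ran between 0.962 and 0.976 in the paricalcitol group, and between 0.979 and 0.985 at baseline. Over 7108 brighter genes the median SD was 0.198 in the paricalcitol group and 0.140 at baseline, and 70.3% of these genes had the larger SD under paricalcitol. Red cell markers separated the paricalcitol arrays: their mean centred score was 0.29, -0.77, -0.85 and 0.55 in paricalcitol replicates 1 to 4, against 0.02, 0.37, 0.75 and -0.19 at baseline. Replicates 2 and 3 of the paricalcitol group were thus low in red cell RNA, and several results are also given without them.

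Of 14217 genes 4 passed between paricalcitol and baseline hearts (0.0281%). Amph was higher (1 gene, 0.00703%), and Exoc8, Nmu and Ywhab were lower (3 genes, 0.0211%). Without adjustment, 1103 genes had a limma p under 0.05 (7.76%), of which 533 were higher (3.75%) and 570 lower (4.01%). The 4 paricalcitol and 4 baseline values did not overlap in 278 genes that were higher (1.96%) and 250 that were lower (1.76%). Across all genes 6756 differences were above 0 and 6755 below it, with a median of 0.00 and quartiles of -0.12 and 0.12.

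**Figure D1:**
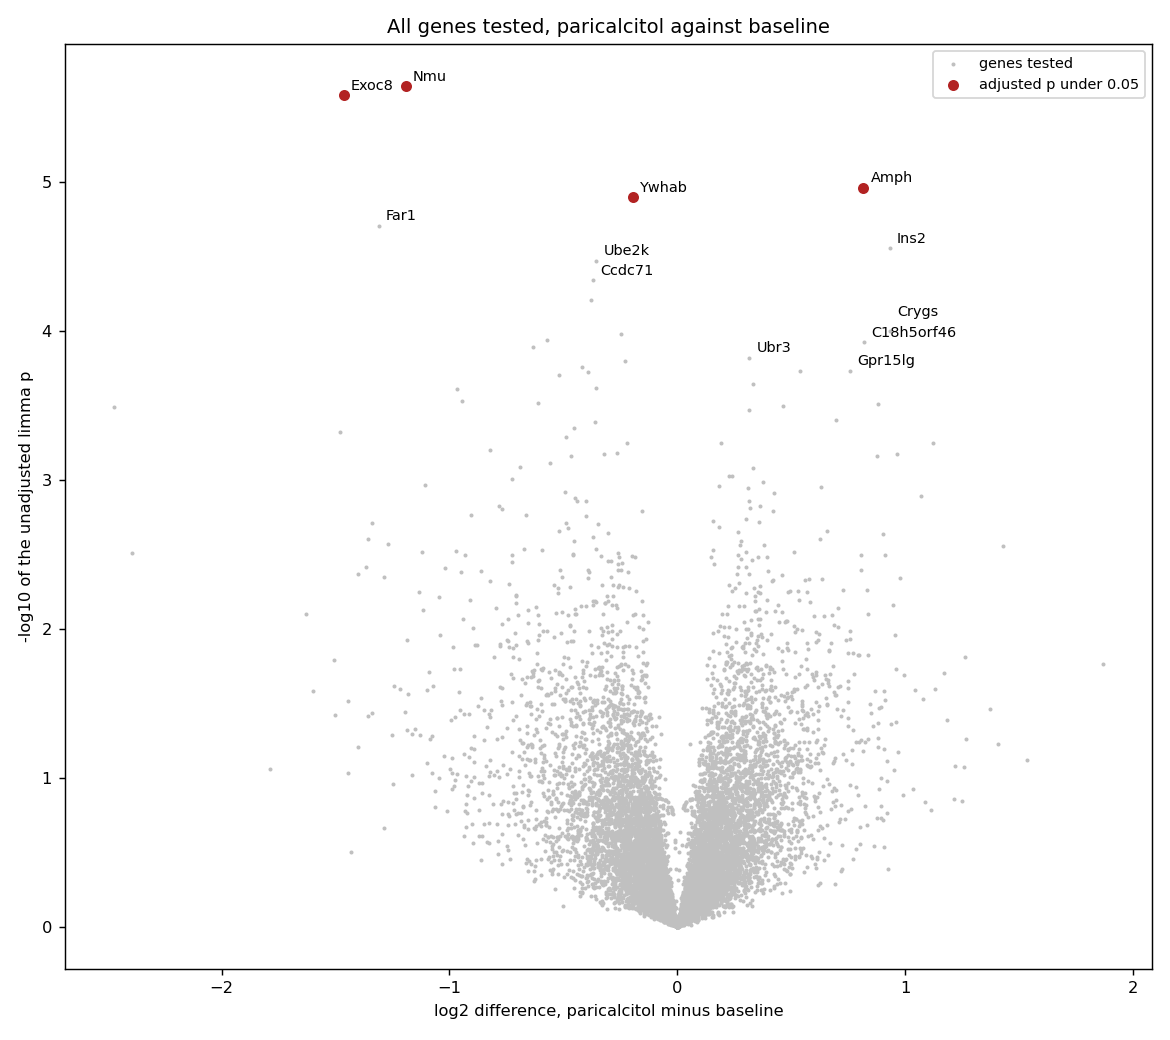
Each point is 1 of the 14217 genes, with the log2 difference, paricalcitol minus baseline, on the horizontal axis and -log10 of the unadjusted limma p on the vertical axis. The 4 red points are the genes that passed, and the labelled grey points are the genes nearest to passing in each direction.

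Amph encodes amphiphysin, a protein that bends membranes during clathrin-mediated endocytosis and is best known in nerve terminals. Its level was 7.41, 7.24, 7.42 and 7.04 on the paricalcitol arrays, against 6.66, 6.44, 6.59 and 6.16 at baseline. Every paricalcitol value lay above every baseline value. Amph rose by 0.82 on the log2 scale (SE 0.13, n = 4 and 4, limma adjusted p = 0.0448), a 1.76-fold higher level on this scale. It fell short of the threshold in 12 of the 20 alternative settings in which it was tested (limma adjusted p between 0.0151 and 0.326). The vehicle hearts lay close to the paricalcitol hearts, and paricalcitol minus vehicle was 0.21 (limma adjusted p = 0.640).

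Exoc8 encodes a subunit of the exocyst, the complex that tethers secretory vesicles to the plasma membrane. Its level was 4.00, 4.62, 4.31 and 4.80 on the paricalcitol arrays, against 5.67, 6.08, 5.81 and 6.02 at baseline. The groups were clearly apart, but the gene was dim, and paricalcitol replicate 1 had no signal above background. Exoc8 fell by a log2 difference of -1.46 (SE 0.20, limma adjusted p = 0.0184), which was -2.42 with a pseudocount of 4 and -0.62 with a pseudocount of 64. It fell short of the threshold in 9 of 20 alternative settings (limma adjusted p between 0.00973 and 0.181). In vehicle hearts it was 5.07, 5.12, 5.91 and 5.39, which is between the other groups except for replicate 3, and paricalcitol minus vehicle was -0.94 (limma adjusted p = 0.0944). The mean was 4.96 ± 0.32 (SD, n = 3) in enalapril hearts and 5.57 ± 0.14 (SD, n = 4) in the combination, which also contained paricalcitol.

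Nmu encodes neuromedin U, a neuropeptide that contracts smooth muscle and curbs feeding. All 4 paricalcitol arrays were at 4.00, against 5.14, 5.28, 5.51 and 4.84 at baseline. The paricalcitol hearts thus had no signal above background, and the baseline hearts a faint one, so no fold is given. Paricalcitol and enalapril arrays were all at the lowest possible value (SD 0), and spread below that value did not enter the p. The gene passed (limma adjusted p = 0.0184), but the fitted log2 difference depended on the pseudocount, at -2.60 with 4, -1.19 with 16 and -0.41 with 64, and sets no size. It fell short of the threshold in 9 of 20 alternative settings (limma adjusted p between 0.00430 and 0.181). Vehicle hearts stood at 4.01, 4.00, 4.00 and 4.00, and vehicle minus baseline also passed (limma adjusted p = 0.0235). Nmu was chosen by its p alone, being too dim for the brightness limit set on the other named genes.

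Ywhab encodes the beta form of 14-3-3, an abundant adaptor that binds phosphorylated proteins. Its level was 10.55, 10.61, 10.61 and 10.57 on the paricalcitol arrays, against 10.75, 10.74, 10.82 and 10.81 at baseline. The difference was small but larger than the spread within either group. Ywhab fell by a log2 difference of -0.20 (SE 0.03, limma adjusted p = 0.0448), a 1.14-fold lower level. This call was the least stable of the 4, because 19 of 21 alternative settings left it short of the threshold. A second probe set of the gene gave -0.11 (SE 0.11). In the deposited intensities, before equalisation, the groups overlapped, at 1202, 1358, 1298 and 1836 under paricalcitol against 2009, 1697, 1845 and 1872 at baseline.

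None of these 4 genes passed between paricalcitol and vehicle hearts, where 2 of 14217 genes did (0.0141%). Between vehicle and baseline hearts 12 passed (0.0844%). These comparisons share arrays with the one described here. The number of genes that passed was not stable. It was 0 when paricalcitol replicate 1, 2 or 3 or baseline replicate 3 was left out, 1 without baseline replicate 2 or 4, 5 without baseline replicate 1 and 8 without paricalcitol replicate 4. It was also 0 when paricalcitol replicates 2 and 3 were left out together, when the red cell score was a covariate, and when the fit used only the 2 groups compared.

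**Figure D2:**
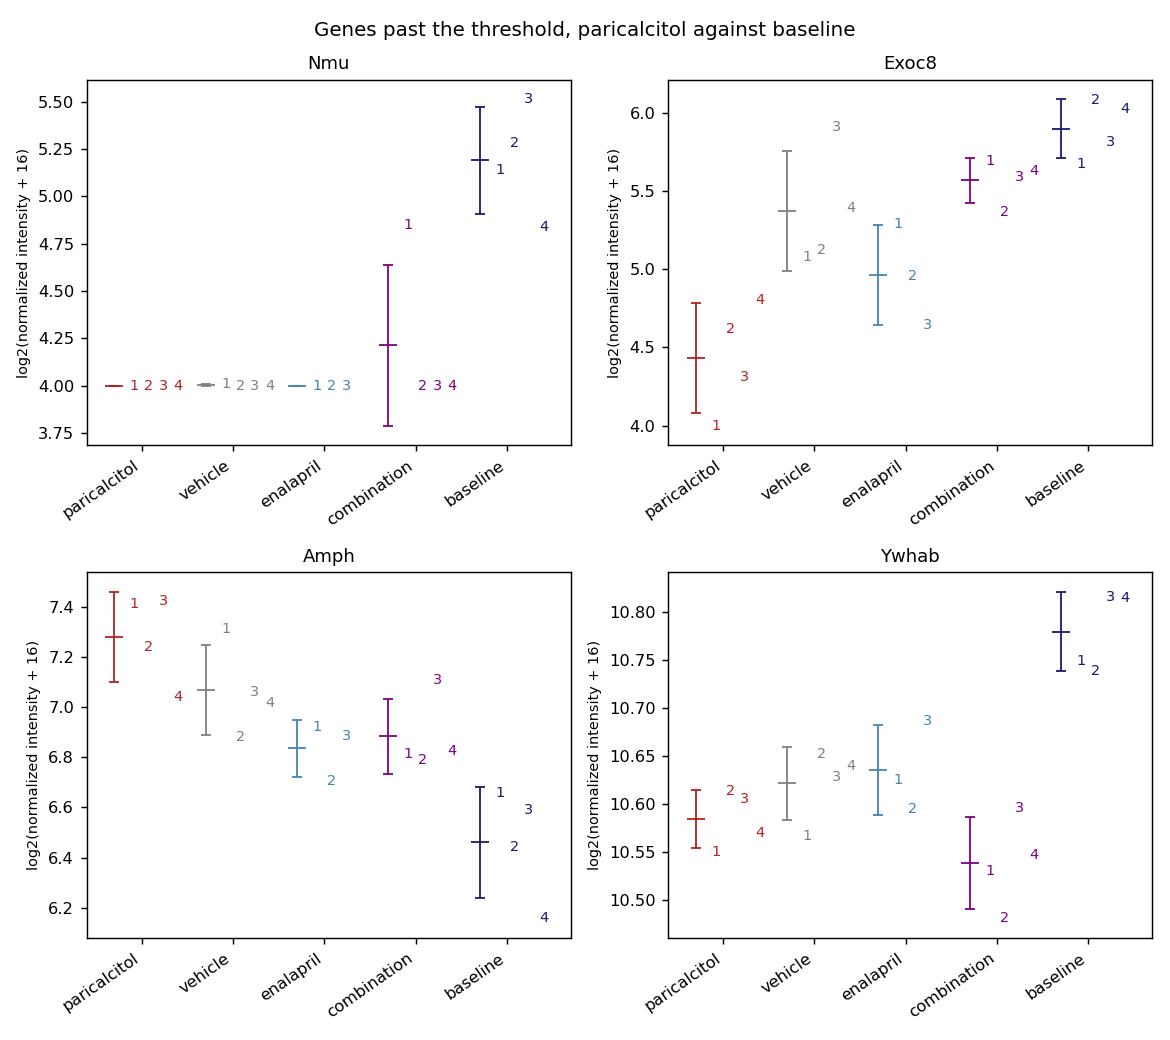
Each panel shows 1 gene that passed, with log2 of normalized intensity plus 16 on the vertical axis and the 5 groups on the horizontal axis. Digits are single arrays by replicate number, and the bar beside them is the mean ± SD. Amph lies higher and the other 3 genes lower under paricalcitol than at baseline, and the vehicle values of Amph, Nmu and Ywhab lie near the paricalcitol values.

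Among the genes nearest to passing, Far1, Ins2 and C18h5orf46 were too dim for the brightness limit, and the others lay above it. Far1, which makes fatty alcohols for ether lipids, was at 4.00 on all 4 paricalcitol arrays, against 5.20, 4.46, 5.84 and 5.74 at baseline (limma adjusted p = 0.0555). It was also at 4.00 on all 4 vehicle arrays, and vehicle minus baseline passed (limma adjusted p = 0.0347). Ins2, an insulin gene of rodents, was at 4.95, 4.85, 5.25 and 4.69 under paricalcitol, against 4.00, 4.00, 4.00 and 4.02 at baseline (limma adjusted p = 0.0653). Vehicle hearts were at 4.38, 4.74, 4.49 and 4.89. Ube2k, a ubiquitin-conjugating enzyme, differed by -0.36 (SE 0.06, limma adjusted p = 0.0681) and Ccdc71 by -0.37 (SE 0.07, limma adjusted p = 0.0808). For both genes vehicle minus baseline was -0.11 and paricalcitol minus vehicle was -0.25. Ube2k had 4 probe sets, of which 2 gave the same direction.

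Ubr3, a ubiquitin ligase, differed by 0.32 (SE 0.06) and Gpr15lg, a ligand of the receptor GPR15, by 0.76 (SE 0.15), both with a limma adjusted p of 0.133. Vehicle minus baseline was 0.19 for Ubr3 and 0.72 for Gpr15lg, and paricalcitol minus vehicle was 0.13 and 0.04. A second probe set of Ubr3 gave 0.075 (SE 0.095) for paricalcitol minus baseline. For Crygs and C18h5orf46, vehicle values lay near baseline. Crygs encodes a crystallin known from the lens. Its level was 6.79, 6.72, 6.70 and 6.28 under paricalcitol, against 5.81, 5.77, 5.76 and 5.09 in vehicle hearts and 5.48, 5.76, 5.81 and 5.70 at baseline. All 4 paricalcitol values lay above all values of both other groups. The difference was 0.93 (SE 0.18, limma adjusted p = 0.130) against baseline and 1.01 (limma adjusted p = 0.0606) against vehicle, so neither passed. C18h5orf46 was at 4.90, 5.22, 5.25 and 4.74 under paricalcitol, against 4.19, 4.00, 4.00 and 4.00 in vehicle hearts and 4.54, 4.00, 4.29 and 4.00 at baseline. Of these, 3 vehicle and 2 baseline arrays had no signal above background, so no size is given (limma adjusted p = 0.130 against baseline and 0.0606 against vehicle). The combination, which also held paricalcitol, had a mean Crygs level of 5.73 ± 0.12 (SD, n = 4), while enalapril alone had 6.27 ± 0.36 (SD, n = 3).

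No member of the 54 gene lists, which held 1015 measured members, passed. The lists are therefore described by how many members were above or below baseline and by their median, beside a median of 0.00 over all genes. In bulk tissue, fewer cells of a type and less RNA per cell cannot be told apart. Without equalisation between arrays the median of all genes was itself -0.17, and the median of every list described below was lower than with it.

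Genes of the extracellular matrix were mostly below baseline. Of 15 basement membrane genes, which form the sheet around each muscle cell and capillary, 14 were lower and 1 higher, with a median of -0.29. Of 23 genes for fibrillar collagens and their processing, 18 were lower and 5 higher (median -0.26). Of 12 fibroblast markers 11 were lower and 1 higher (median -0.26). These markers include Col1a1, Col1a2 and Col3a1, so the fibroblast result is not separate from the collagen result. These medians depended on single arrays. Without paricalcitol replicate 2 they were -0.15, -0.15 and -0.16 in that order. The collagen median was -0.40 without paricalcitol replicate 3 and -0.15 without baseline replicate 1, and the fibroblast median was -0.10 without paricalcitol replicate 4. With the red cell score as a covariate the basement membrane median was -0.15, and without paricalcitol replicates 2 and 3 it was -0.16. The vehicle hearts showed medians of -0.32, -0.43 and -0.29 against the same baseline arrays for these 3 lists. Sparc, a secreted collagen-binding protein placed with the basement membrane genes, was the member with the smallest p.

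Sparc was at 11.94, 11.78, 12.03 and 11.70 under paricalcitol, against 12.33, 12.32, 12.28 and 12.21 at baseline. The groups did not overlap, and the 4 baseline values lay close together. The difference was -0.42 (SE 0.08, limma adjusted p = 0.133), and paricalcitol minus vehicle was -0.10. Nid1 and Nid2, the nidogens that link laminin to collagen IV, differed by -0.30 (SE 0.14) and -0.43 (SE 0.18), and Col4a5, a collagen IV chain, by -0.34 (SE 0.17). Their groups overlapped.

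The main fibrillar collagens varied widely under paricalcitol. Col1a1 was at 11.18, 10.85, 12.25 and 10.42 under paricalcitol, against 12.47, 11.89, 11.67 and 10.96 at baseline, a difference of -0.57 (SE 0.37). Col3a1 was at 12.41, 12.24, 13.24 and 11.96, against 13.28, 12.98, 13.00 and 12.40 at baseline, a difference of -0.45 (SE 0.27). In both genes paricalcitol replicate 3 was the highest of its group and reached the upper baseline values. The fibroblast score includes Col1a1 and Col3a1, so it is no separate evidence. It was 0.39 in paricalcitol replicate 3, against 0.07, -0.33 and -0.21 in replicates 1, 2 and 4. At baseline it lay between 0.13 and 0.35.

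Interferon-stimulated genes, which cells switch on in response to viral nucleic acid or interferon, were below baseline in 29 of 33 members, with a median of -0.28. Of the 33, 8 were lower at an unadjusted limma p under 0.05, against 4.01% of all genes, and 3 were lower without overlap, against 1.76% of all genes. Isg15, a ubiquitin-like protein, was at 7.47, 7.69, 7.79 and 7.27 under paricalcitol, against 7.99, 8.22, 8.87 and 8.24 at baseline (difference -0.78, SE 0.28, limma adjusted p = 0.529). Irf7, the transcription factor that amplifies interferon production, was at 9.01, 8.85, 8.72 and 8.58 under paricalcitol, against 8.90, 9.90, 9.62 and 9.32 in vehicle hearts and 9.34, 9.31, 9.69 and 9.27 at baseline. The paricalcitol and baseline values of Irf7 were separate, with a difference of -0.61 (SE 0.22, limma adjusted p = 0.541).

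Vehicle replicate 1 overlapped the paricalcitol range of Irf7, and paricalcitol minus vehicle was -0.65 (limma adjusted p = 0.347). Cxcl10, a chemokine that draws T cells, differed by -0.75 (SE 0.26) and Isg20, an RNA exonuclease, by -0.52 (SE 0.20) against baseline, with overlap in both. The list score was -0.21, -0.23, 0.01 and -0.21 under paricalcitol, against 0.04, 0.03, 0.47 and 0.11 at baseline, so baseline replicate 3 was far above the other baseline arrays. The median over members stayed between -0.38 and -0.23 when each of the 8 arrays was left out. Without equalisation it was -0.48. The median in vehicle hearts was -0.13 against the same baseline arrays.

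Cell cycle and DNA replication genes were lower in 39 of 47 members and higher in 6, with a median of -0.24, which was -0.13 with a pseudocount of 64. Ccnb2, a mitotic cyclin, was at 5.35, 5.59, 6.08 and 5.09 under paricalcitol, against 6.60, 6.90, 6.56 and 5.81 at baseline (difference -0.94, SE 0.31, limma adjusted p = 0.495). Ccnd1, the cyclin of entry into the cycle, differed by -0.55 (SE 0.22). Baseline replicate 4 was the lowest of its group for Ccnb2 and for the list score, where it stood at -0.14 against 0.22 to 0.37 in the other baseline arrays. In vehicle hearts the list median was -0.23 against baseline.

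**Figure D3:**
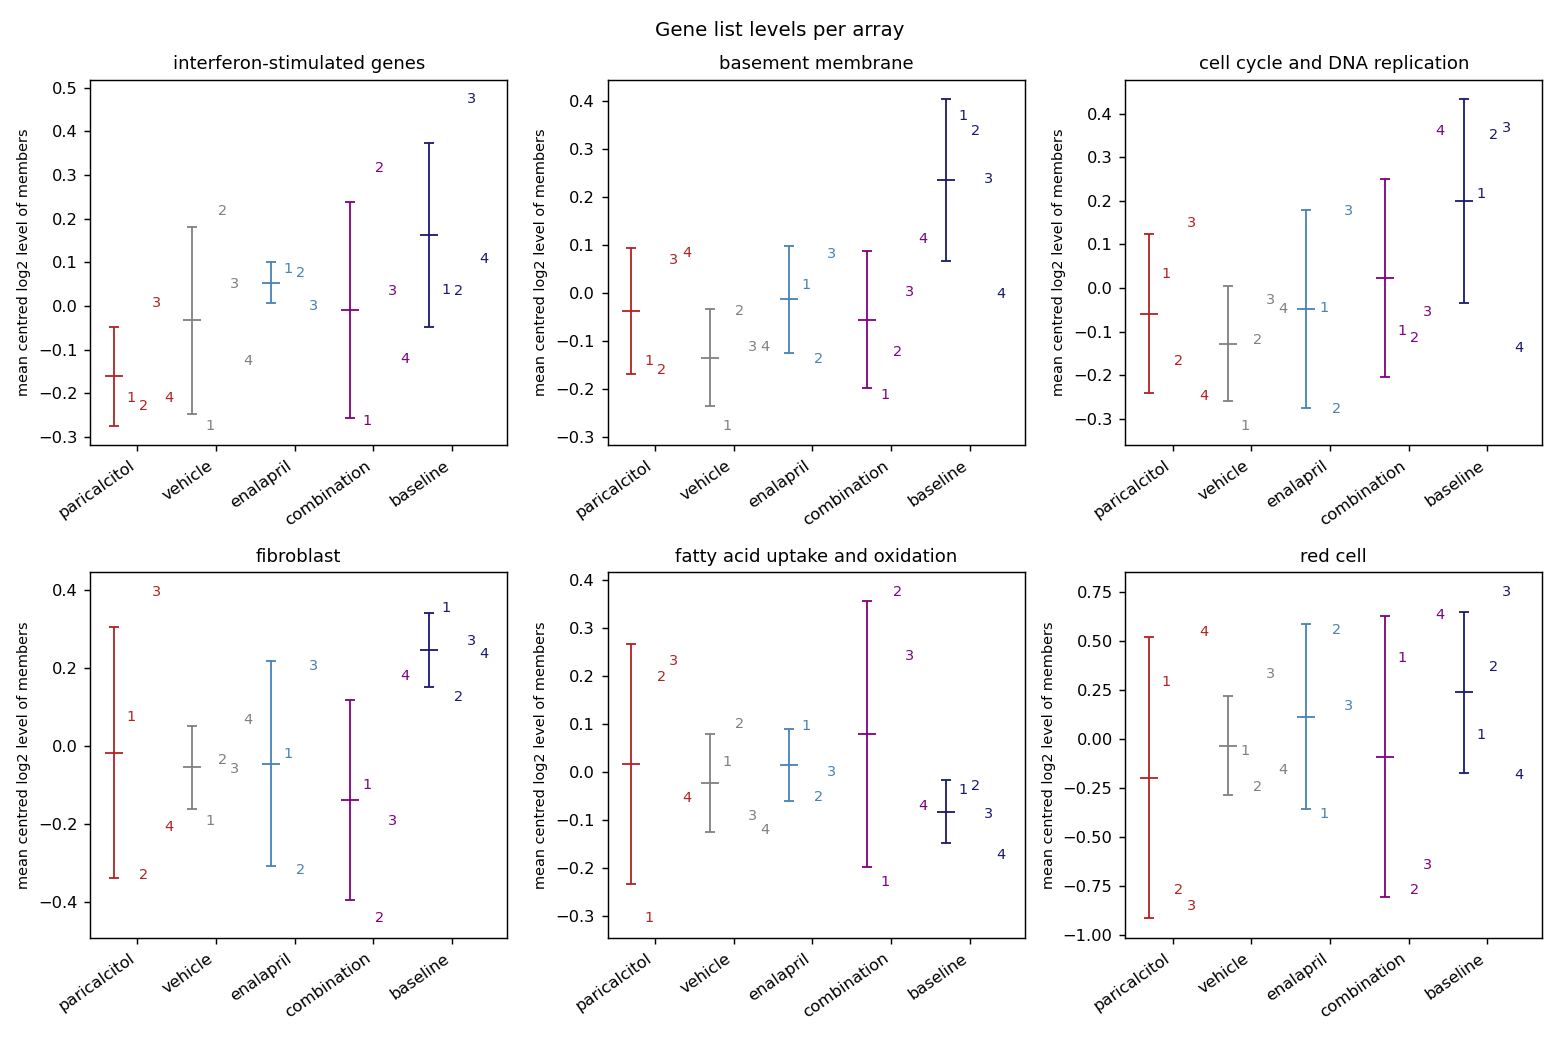
Each panel shows the mean centred log2 level of the members of 1 list on every array of the 5 groups, with digits for replicates and the mean ± SD beside them. Baseline replicates 1 to 3 lie above all paricalcitol arrays for basement membrane genes, and paricalcitol replicates 2 and 3 lie far below replicates 1 and 4 for red cell genes.

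Vessel genes were mixed as a group. Of 27 angiogenic factors and receptors 17 were lower and 10 higher (median -0.07), and of 15 endothelial markers 10 were lower and 5 higher (median -0.07). Without overlap, 3 of the 27 and 2 of the 15 were lower and none was higher, against 1.76% lower over all genes. Cd93, a surface lectin of endothelial cells, was at 6.55, 6.92, 7.21 and 7.47 under paricalcitol, against 6.59, 6.74, 6.45 and 6.74 in vehicle hearts and 8.14, 7.66, 7.67 and 7.57 at baseline. Both groups of 15-week-old rats lay below baseline. The difference was -0.73 (SE 0.18, limma adjusted p = 0.281) for paricalcitol and -1.13 (limma adjusted p = 0.0347) for vehicle.

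Nrp2, a co-receptor for vascular growth factors, averaged 6.41 ± 0.19 under paricalcitol, with 6.57 as its highest value, and 7.03 ± 0.03 at baseline (SD, n = 4 each), a difference of -0.62 (SE 0.20) without overlap. Fgfr1, a fibroblast growth factor receptor, differed by -0.48 (SE 0.13) and Pdgfa, a growth factor for mesenchymal cells, by -0.31 (SE 0.13), both without overlap. Podxl, a sialomucin of the vessel lining, differed by -0.14 (SE 0.08) from baseline, while paricalcitol minus vehicle was 0.41 (limma adjusted p = 0.0704). For Cd93 and Nrp2, 1 of 2 probe sets gave the direction stated. Of 14 smooth muscle and pericyte markers 9 were higher and 5 lower (median 0.04, and -0.18 without equalisation).

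Among 25 genes of the vitamin D list, 7 were higher, 16 lower and 2 equal, with a median of -0.02. Vdr, the receptor on which paricalcitol acts, was dim, at 5.03, 5.83, 6.04 and 5.40 under paricalcitol, against 5.48, 5.57, 5.60 and 5.18 at baseline. The baseline values lay inside the paricalcitol range, and the difference was 0.12 (SE 0.21, limma adjusted p = 0.982), which turned to -0.04 without paricalcitol replicate 3. Thbd, the endothelial anticoagulant thrombomodulin and a known vitamin D target, was at 9.54, 9.56, 9.70 and 9.55 under paricalcitol, against 10.06, 9.97, 9.89 and 9.86 at baseline. These values were separate, at a difference of -0.36 (SE 0.07, limma adjusted p = 0.145), and vehicle minus baseline was -0.49 (limma adjusted p = 0.0347). Cdkn1a, the cell cycle inhibitor p21, was 0.37 higher on the log2 scale (SE 0.16, limma adjusted p = 0.597) with overlap.

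The renin-angiotensin and kinin list had 10 of 16 members above baseline, 5 below it and a median of 0.03, which was -0.03 without equalisation. Enpep, the aminopeptidase that degrades angiotensin II, differed by -0.30 (SE 0.10, limma adjusted p = 0.516). Agtr1a, the main angiotensin II receptor of rodents, differed by 0.35 (SE 0.22, limma adjusted p = 0.763), and 1 of 2 probe sets gave that direction. Both had overlapping groups.

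Genes of load and contraction gave no call. Nppb, the B-type natriuretic peptide released under wall stretch, was at 13.65, 13.39, 13.02 and 13.94 under paricalcitol, against 13.38, 13.39, 13.72 and 12.74 at baseline, a difference of 0.19 (SE 0.22, limma adjusted p = 0.923). The groups overlapped. Myh6, the fast adult myosin heavy chain of rodents, was at 12.04, 13.38, 13.63 and 13.16 under paricalcitol, against 13.34, 13.29, 13.11 and 11.57 at baseline. Paricalcitol replicate 1 and baseline replicate 4 were each far below their groups, and the difference of 0.23 (SE 0.48) turned to -0.19 without that baseline array. Nppa, Myh7, Acta1 and Atp2a2 differed by -0.09, 0.00, -0.02 and 0.03, but each ranked 19th or higher of 14217 genes on every array, and quantile normalization nearly fixes values that high. Ldb3, a Z-disc scaffold of muscle, was 0.34 higher on the log2 scale (SE 0.11, limma adjusted p = 0.458).

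Cacna2d1, an auxiliary subunit of voltage-gated calcium channels, was the calcium handling gene with the smallest p. Its level was 8.10, 8.19, 8.05 and 7.74 under paricalcitol, against 8.43, 8.67, 8.52 and 8.90 at baseline. The groups did not overlap, and the difference was -0.61 (SE 0.13, limma adjusted p = 0.158). Paricalcitol minus vehicle was -0.42 (limma adjusted p = 0.291). Adcy5, the main adenylyl cyclase of cardiac muscle, was 0.33 higher on the log2 scale (SE 0.08, limma adjusted p = 0.252), also without overlap, but 1 of 2 probe sets gave that direction.

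Genes of fatty acid uptake and oxidation, the main fuel pathway of the adult heart, were above baseline in 27 of 34 members, with a median of 0.11, which was -0.05 without equalisation. Acaa2, the mitochondrial thiolase, was at 12.37, 12.74, 12.65 and 12.21 under paricalcitol, against 12.21, 11.97, 12.03 and 12.04 at baseline (difference 0.43, SE 0.17, limma adjusted p = 0.580). Paricalcitol replicates 2 and 3 were highest for Acaa2, and the list score was -0.31, 0.20, 0.23 and -0.05 in paricalcitol replicates 1 to 4, against -0.04, -0.03, -0.09 and -0.17 at baseline. These are the arrays with the least red cell RNA, and without both of them the list median was -0.01. It was 0.20 without paricalcitol replicate 1, 0.042 without replicate 2 and 0.16 without replicate 4. In vehicle hearts the list median was 0.096 against the same baseline arrays, and the median of paricalcitol minus vehicle was 0.0016. Prkag1, a subunit of AMP-activated kinase, was 0.16 higher on the log2 scale without overlap (SE 0.05, limma adjusted p = 0.418), and -0.08 without equalisation.

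Of 18 subunits of the vesicular proton pump, which acidifies lysosomes and secretory vesicles, 13 were lower and 5 higher (median -0.09), and 3 were lower without overlap, against 1.76% of all genes. Atp6v1d, a subunit of the rotating stalk, was at 11.62, 11.70, 11.59 and 11.58 under paricalcitol, against 11.86, 11.94, 11.87 and 11.92 in vehicle hearts and 11.76, 11.76, 11.81 and 11.78 at baseline. The paricalcitol values were the lowest of the 3 groups without overlap. The difference was -0.16 (SE 0.04, limma adjusted p = 0.335) against baseline and -0.28 (limma adjusted p = 0.0358) against vehicle, so only the second passed. The second did not pass without paricalcitol replicate 3 (limma adjusted p = 0.146) or replicate 4 (limma adjusted p = 0.0853). Atp6v0e2, a small membrane subunit, differed by -0.45 (SE 0.11, limma adjusted p = 0.318) against baseline.

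Ecrg4, which encodes the secreted peptide precursor augurin, was at 5.99, 5.91, 6.42 and 5.85 under paricalcitol, against 6.85, 7.42, 7.24 and 7.31 in vehicle hearts and 6.28, 6.50, 6.63 and 6.17 at baseline. Paricalcitol and baseline values overlapped, and vehicle values lay above both. The difference was -0.35 (SE 0.15, limma adjusted p = 0.597) against baseline and -1.16 (limma adjusted p = 0.0139) against vehicle. The second did not pass without paricalcitol replicate 4 (limma adjusted p = 0.0794). Lss, an enzyme of cholesterol synthesis, differed by 0.06 from baseline (SE 0.15), while vehicle minus baseline was 0.90 (limma adjusted p = 0.0347) and paricalcitol minus vehicle was -0.84 (limma adjusted p = 0.0606). Igf2, a fetal growth factor, differed by -0.30 from baseline (SE 0.14), and vehicle minus baseline was -0.91 (limma adjusted p = 0.0347), but 1 of 4 probe sets of Igf2 gave that direction.

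Atg12, a ubiquitin-like protein needed to form autophagosomes, was at 9.74, 9.73, 9.83 and 9.54 under paricalcitol, against 9.67, 9.72, 9.86 and 9.68 in vehicle hearts and 9.41, 9.41, 9.23 and 9.46 at baseline. Paricalcitol and vehicle values lay together above baseline. The difference from baseline was 0.33 (SE 0.07, limma adjusted p = 0.145), and 1 of 3 probe sets gave that direction.

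**Figure D4:**
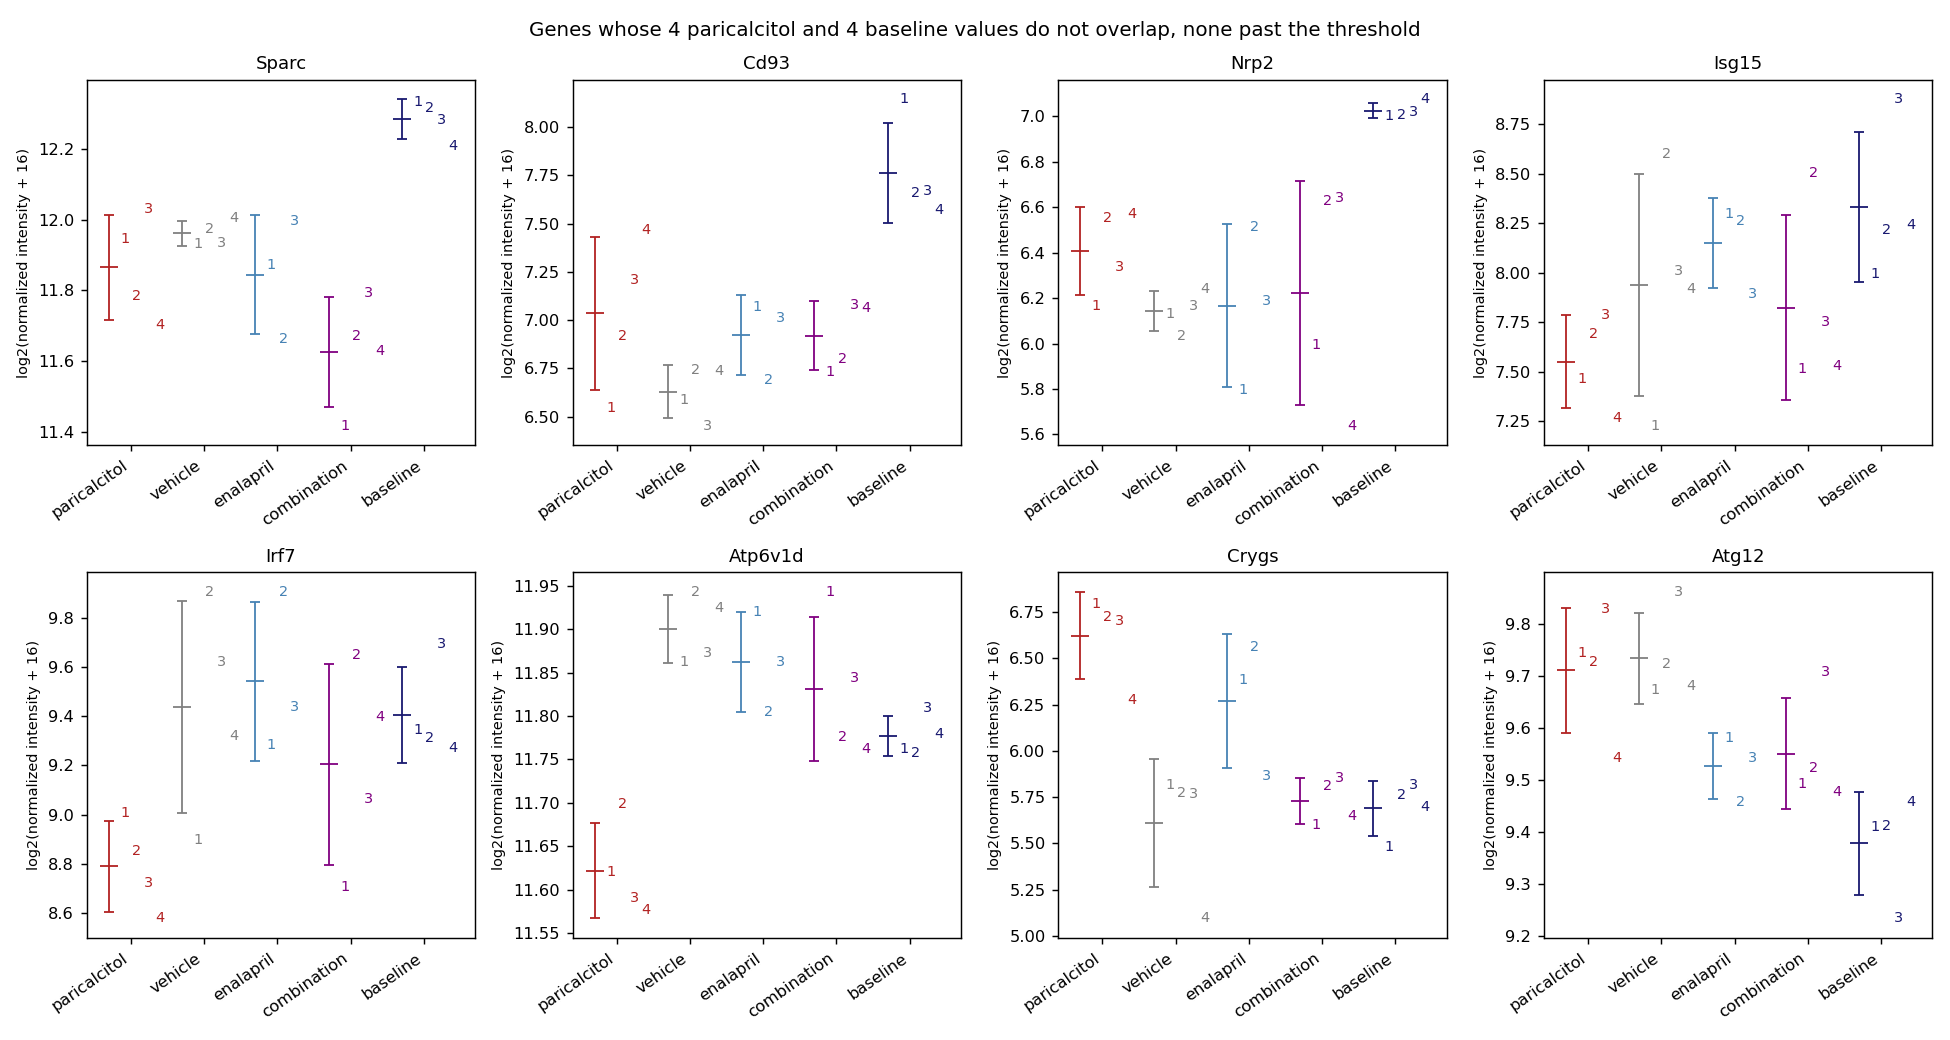
Each panel shows 1 gene whose 4 paricalcitol and 4 baseline values did not overlap and which did not pass, with log2 of normalized intensity plus 16 on the vertical axis, the 5 groups on the horizontal axis, digits for replicates and the mean ± SD beside them. Crygs and Atp6v1d have vehicle values nearer to baseline than to paricalcitol, and Sparc, Cd93, Nrp2 and Atg12 have vehicle values nearer to paricalcitol.

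Blood and immune markers varied between single arrays. All 9 red cell markers were below baseline (median -0.43), and without paricalcitol replicates 2 and 3 the median was 0.13. Those arrays were picked for their low red cell score, so this rise follows from the choice and decides nothing. The red cell median was -0.18 without paricalcitol replicate 3, -0.71 without paricalcitol replicate 4 and -0.26 without baseline replicate 3. Alas2, the first enzyme of haem synthesis in red cells, was at 11.21, 9.93, 9.23 and 11.66 under paricalcitol, against 10.85, 11.10, 11.29 and 10.73 at baseline. S100a8, a calcium-binding protein of neutrophils, was at 7.15, 6.35, 6.36 and 9.21 under paricalcitol, against 6.33, 5.49, 6.21 and 5.55 at baseline. Replicate 4 thus stood apart (difference 1.37, SE 0.59, limma adjusted p = 0.602). Of the 10 neutrophil and mast cell markers measured, 5 were higher, 3 lower and 2 equal. In both groups 3 of them had a mean at or near background. Macrophage and myeloid markers were higher in 6 and lower in 10 of 16 members (median -0.04, and 0.19 without paricalcitol replicate 2), with scores between -0.63 and 0.51 under paricalcitol, against -0.21 to 0.37 at baseline. T and NK cell markers were higher in 11 and lower in 4 of 15 members (median 0.21, and 0.048 without paricalcitol replicates 2 and 3), with scores between -0.21 and 0.11 under paricalcitol, against -0.13 to -0.05 at baseline. The part of blood and immune markers in the other results was not tested. Exceptions were the fits with the red cell score and without paricalcitol replicates 2 and 3.

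**Figure D5:**
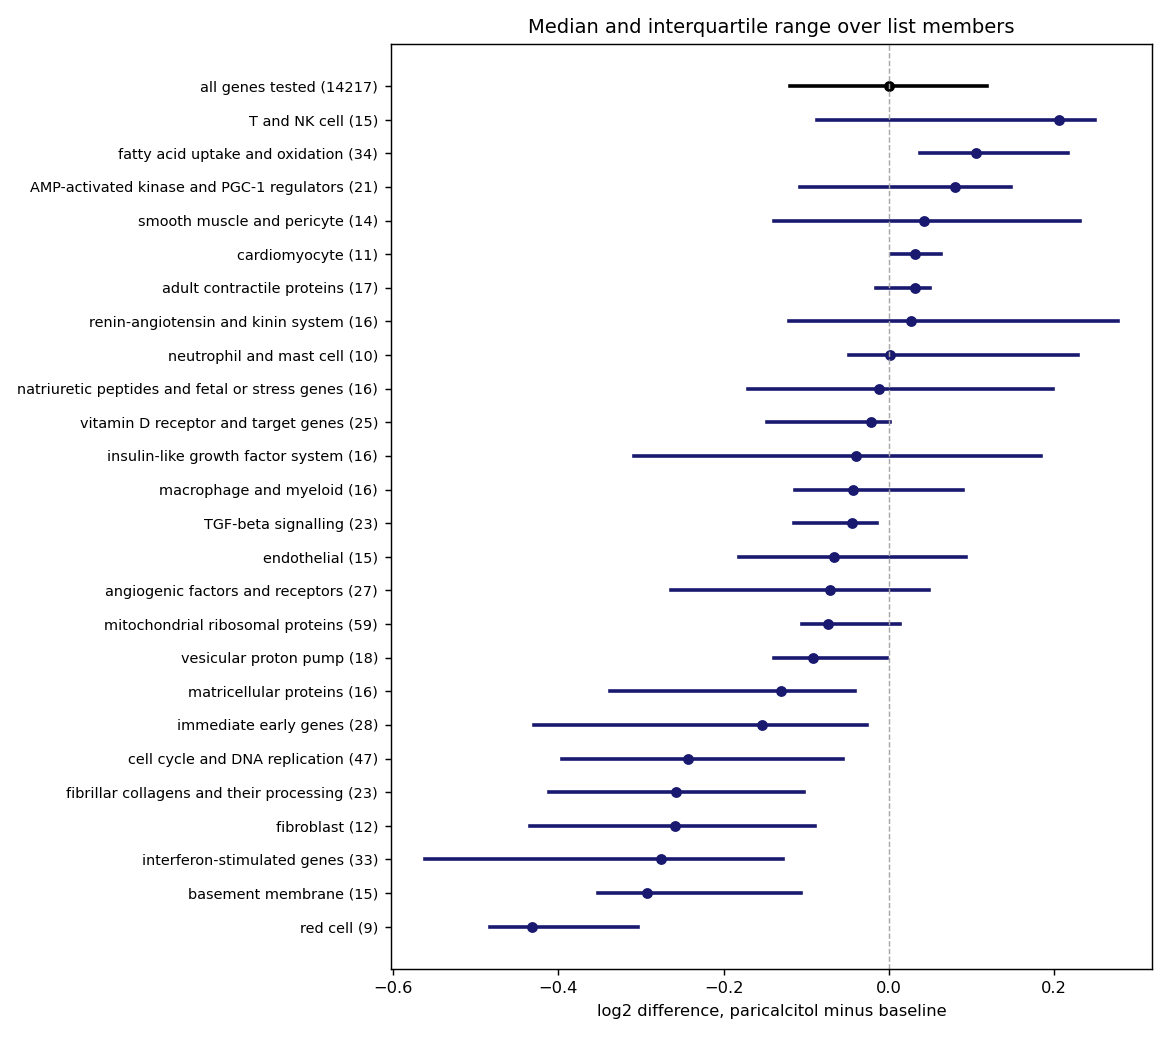
Points are the median log2 difference, paricalcitol minus baseline, over the members of each list, lines run between the quartiles of its members, and the number measured is in brackets. The top line is all genes tested, with a median of 0.00, and red cell, basement membrane, interferon-stimulated, fibroblast, collagen and cell cycle genes lie lowest.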

How the data were processed

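RNA of 19 left ventricles was measured on 1 Affymetrix array each; per the labels' protocols the RNA integrity number was above 9 and 5 ug of total RNA was used. The authors deposited linear intensities, a single value per probe set and array, and between 16.0% and 18.2% of them lay below 0 on an array, so a background had been subtracted; which tools made them is not given in the sources used here. No 2 arrays held identical values.

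Quantile normalization over the 19 arrays was followed by a floor at 0, a pseudocount of 16 and the log2 transform. Of 31099 probe sets, 20826 named 1 gene, 436 several, 9780 none and 57 were controls. Each of 14217 genes was represented by its brightest probe set; gene names come from the platform annotation, of which 20758 probe sets matched RefSeq.

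The 5 groups of all 19 arrays entered 1 linear model (limma 3.58.1, R 4.3.3) with a variance trend and Benjamini-Hochberg adjustment over all genes. The procedure was tested on simulated data, with its limit on false calls set after a first simulated result was seen. The labels number the replicates and give each a further number whose meaning they do not state, so p-values measure only the spread between these arrays. Named genes were those that passed without overlap and whose higher group mean lay above the lower quartile of gene means (5.32). Exoc8 met that limit only through its baseline mean of 5.90, as its paricalcitol mean was 4.43. Also named were those with the smallest p up to 6 a direction and a fixed panel. From each list up to 4 members with the smallest p above the same limit were added. The comparison, the 54 lists and the rules were chosen with earlier results of these data known. Alternatives were other normalizations, pseudocounts, filters, fits, probe set rules, a replicate block, a red cell covariate and each array left out; leaving out paricalcitol replicates 2 and 3 together was added after seeing the data.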

Additional observations from a re-analysis of the deposited data

Results flagged for a closer look

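Among 192 groups of 4 values tested (the genes and lists of the text, in paricalcitol and in baseline hearts), 10 held 1 array whose gap to the nearest other array exceeded Dixon's critical share of the group's range; chance gives about 1 in 20. Under paricalcitol these were Thbd in replicate 3, at 9.70, the interferon-stimulated score in replicate 3, at 0.0077, and the matricellular score in replicate 2, at -0.66. At baseline, replicate 4 was apart for Myh6 at 11.57, for Nid2 at 7.51 and for Ins2 at 4.02. For Ins2 the other 3 baseline values were at the floor of 4.00, so any value above it would have been flagged. Baseline replicate 1 was apart for Cd93, at 8.14. Baseline replicate 3 was apart for the interferon-stimulated score, at 0.47, and for the renin-angiotensin and kinin score, at -0.15. Baseline replicate 2 was apart for the matricellular score, at -0.032.

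For 2 genes the difference from baseline was not the same under paricalcitol as under vehicle, tested as paricalcitol minus vehicle. It was -1.16 for Ecrg4 (limma adjusted p = 0.0139) and -0.28 for Atp6v1d (limma adjusted p = 0.0358), with all 4 paricalcitol values below all 4 vehicle values in both. Ecrg4 did not pass in 2 of 19 other settings, without equalisation (limma adjusted p = 0.0543) and without paricalcitol replicate 4 (limma adjusted p = 0.0794). Atp6v1d did not pass in 9 of 20, among them without equalisation (limma adjusted p = 0.874), with cyclic loess (limma adjusted p = 0.0616), without paricalcitol replicate 3 (limma adjusted p = 0.146) and without paricalcitol replicate 4 (limma adjusted p = 0.0853).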

How the results depend on the processing

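Of 14217 genes 4 passed (1 higher, 3 lower). The count was 6 without equalisation (1 higher, 5 lower), 1 with each array centred on its median (0 higher, 1 lower), 6 with a pseudocount of 4 (2 higher), 2 with array weights (0 higher), and 7 with every probe set tested singly (6 lower). It was 0, in both directions, with dimmer genes left out, with only the 2 groups compared and with the red cell covariate. The count was also 0 without paricalcitol replicates 2 and 3, a setting chosen after seeing the data. Unadjusted limma p under 0.05 held for 598, 978, 1440 and 1638 genes in these settings, in that order. Leaving out the dimmer genes also removed Amph, Exoc8 and Nmu, so of the 4 genes only Ywhab was tested there. The replicate block gave 7 genes (3 higher), which included all 4; correlations of same-numbered deviations were -0.19, 0.28, 0.05 and 0.27, not all above 0.1, so the numbers were not taken as pairs. Of the 4 paricalcitol arrays 1, and of the 4 baseline arrays 2, correlated best with their own number. Leaving out single arrays gave 0 to 8 genes, 0 to 2 of them higher and 0 to 6 lower. Cyclic loess kept Amph, Exoc8 and Nmu.

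Of 80 gene differences 69 kept their sign under every setting run. Without equalisation Prkag1 was -0.077, Gpx4 -0.012, Lss -0.065 and Insig1 -0.041, where the median gene was -0.17. With medians centred Nppa was 0.030 and Myh7 0.11, and with cyclic loess Myh7 was 0.063. With probe sets averaged Igf2 was 0.054, Adcy5 -0.038 and Myh7 0.0040. With the red cell covariate Alas2 was 0.18 and Myh7 0.0057. Without paricalcitol replicates 2 and 3 Nppa was 0.019, Myh6 -0.23, Myh7 0.021, Vdr -0.24 and Alas2 0.45. Alas2 is a member of the red cell score, which is the covariate and by which these arrays were picked. Neither change of its sign is therefore a separate check. Leaving out single arrays gave Myh6 -0.19 (baseline replicate 4) to 0.57 (paricalcitol replicate 1), Vdr -0.039 (paricalcitol replicate 3) to 0.30 (paricalcitol replicate 1) and Myh7 -0.044 (baseline replicate 3) to 0.031 (paricalcitol replicate 3). The causes were not tested. Signal near background limits Nmu, Exoc8, Far1, Ins2 and C18h5orf46, and spread below the floor did not enter their p.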
